A study of Mus musculus with 20 samples.

Results

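The 10 genes described here are Egr1, Egr2, Egr3, Nr4a1, Nr4a2, Ier2, Ier3, Ier5, Srf and Csrnp1. They are known as early response genes and were measured in sorted mouse hematopoietic stem cells (HSCs). These are 10 of the 49671 gene IDs in the RNA count tables. They were taken from a list of symbols matched to the Ensembl IDs, and the list was selected on gene family with the RNA levels of Kdm6b-KO against Control in these same samples already known. Their RNA levels in that comparison are therefore a description, and no test on them is offered as support. Peaks of open chromatin in the genes or within 50 kb of them were counted as a separate measurement.

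Early response genes are transcribed within minutes of a growth factor, stress or adhesion signal, without new protein synthesis, because the factors that start them are already present in the cell. Serum response factor binds CArG boxes together with ETS-family partners that are phosphorylated by the ERK kinases, and CREB binds cyclic AMP response elements. The RNAs are short-lived. Egr1 has been described as a regulator of HSC quiescence and retention in mouse bone marrow.

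All samples came from C57BL/6 mice aged 8 weeks that carried the Vav Cre driver, which is active throughout the blood system. Control animals were Kdm6b+/+ and Kdm6b-KO animals were Kdm6b fl/fl, a conditional allele of a histone H3 lysine 27 demethylase gene. There were 3 RNA libraries per genotype, each from pooled marrow of 3 male and 3 female mice, sorted as Lin-, cKit+, Sca1+, CD150+ and CD48- cells. ATAC-seq, in which a transposase inserts adapters into accessible DNA, gave 3 peak lists titled Control and 3 titled 6bKO. The genotype label of all 6 ATAC libraries reads wild-type, so their groups rest on the titles and they are called the libraries titled 6bKO. The other 8 of the 20 samples were not analysed here.

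The RNA libraries held 6793873 to 19336121 counts assigned to genes, which was 16.5% to 19.7% of each file. HSC markers were present in every library, with a summed level over 15 genes that ran from 4897 to 7554 CPM (reads counted per gene, scaled to a common library size) over the Control libraries and from 5528 to 5821 CPM over the Kdm6b-KO libraries. Counts over the whole Kdm6b gene were 92.0, 282.5 and 220.6 CPM across the Control libraries and 142.5, 202.1 and 191.3 CPM across the Kdm6b-KO libraries, so the groups overlapped (log2 fold change -0.15, SE 0.35, edgeR adjusted p = 0.882). The labels do not give the deleted stretch, and reads from the rest of the gene are counted too, so this value does not check the labels. Summed erythroid markers were 11298, 10020 and 8414 CPM across the Control libraries and 5631, 4596 and 5760 CPM across the Kdm6b-KO libraries, and summed neutrophil markers were 3913, 1277 and 2270 CPM against 4621, 202 and 205 CPM. These 2 sums cover the 15 and 18 listed genes, none of which was at 0 in all 6 libraries, and none of which passed the test. Every Kdm6b-KO library was below every Control library in the erythroid sum, and the neutrophil sums overlapped. Of the genes tested, 11 of 13 erythroid and 15 of 16 neutrophil genes had a negative log2 fold change (medians -0.84 and -0.53). Over all genes tested, 49.9% were positive. The mast cell and basophil list, of which 4 of 9 genes were tested and all 4 were negative (median log2 fold change -1.54), summed to 93.1, 37.0 and 23.0 CPM against 26.1, 8.61 and 6.03 CPM. None of these 4 genes passed, nor did any gene of the monocyte, B cell, T and NK cell or megakaryocyte lists. Those lists differed in direction. Positive log2 fold changes were found in 3 of 4 T and NK cell genes (median 0.55) and 7 of 9 megakaryocyte genes (median 0.32). They were found in 5 of 10 monocyte genes (median -0.16) and 1 of 7 B cell genes (median -0.40). The part of such cells in the results below was not tested. In bulk samples, more cells that express a gene and more RNA per cell cannot be told apart.

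Promoter windows from RefSeq, 250 bases before to 50 bases after an annotated start in GRCm38.p6, were matched by symbol for 7 of the 10 genes and gave 14 windows. The 5 windows printed here show the CArG boxes, TGACG clusters and NF-kappaB sites that the motif counts rest on. Capitals mark CArG boxes, the TGACG core of the cyclic AMP response element, Egr sites (GCGNGGGCG) and NF-kappaB sites on either strand, and offsets count from the annotated start as 0. The Srf window lies at chr17:46556113-46556412 on the minus strand and holds paired CArG boxes at -82 and -62, an Egr site at -101 and a TGACG site at -201.
Srf: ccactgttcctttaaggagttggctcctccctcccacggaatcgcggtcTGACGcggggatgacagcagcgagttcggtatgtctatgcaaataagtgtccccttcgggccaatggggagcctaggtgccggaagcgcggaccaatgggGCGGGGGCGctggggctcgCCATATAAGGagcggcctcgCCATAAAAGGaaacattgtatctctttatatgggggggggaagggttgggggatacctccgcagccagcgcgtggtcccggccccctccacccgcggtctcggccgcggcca
The Egr2 window lies at chr10:67537619-67537918 on the plus strand and holds a CArG box at -72 between TGACG sites at -111 and -55.
Egr2: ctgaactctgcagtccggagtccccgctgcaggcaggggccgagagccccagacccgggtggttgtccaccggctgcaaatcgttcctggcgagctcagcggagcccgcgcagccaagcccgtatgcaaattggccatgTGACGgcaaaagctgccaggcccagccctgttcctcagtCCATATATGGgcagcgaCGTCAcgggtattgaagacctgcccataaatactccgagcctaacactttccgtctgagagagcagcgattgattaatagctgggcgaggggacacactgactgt
The Nr4a1 window, at chr15:101266596-101266895 on the plus strand, holds 4 TGACG sites, an Egr site at -60 and an NF-kappaB site at -3.
Nr4a1: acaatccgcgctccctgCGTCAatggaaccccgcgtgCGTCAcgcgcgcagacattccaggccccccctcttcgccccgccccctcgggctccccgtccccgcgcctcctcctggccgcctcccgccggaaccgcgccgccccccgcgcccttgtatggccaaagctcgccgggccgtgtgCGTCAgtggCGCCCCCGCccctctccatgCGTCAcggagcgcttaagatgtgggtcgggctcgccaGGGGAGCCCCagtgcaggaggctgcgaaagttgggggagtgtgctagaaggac
The Nr4a2 window, at chr2:57123954-57124253 on the minus strand, also holds 4 TGACG sites, between -200 and -111, with an Egr site at -74.
Nr4a2: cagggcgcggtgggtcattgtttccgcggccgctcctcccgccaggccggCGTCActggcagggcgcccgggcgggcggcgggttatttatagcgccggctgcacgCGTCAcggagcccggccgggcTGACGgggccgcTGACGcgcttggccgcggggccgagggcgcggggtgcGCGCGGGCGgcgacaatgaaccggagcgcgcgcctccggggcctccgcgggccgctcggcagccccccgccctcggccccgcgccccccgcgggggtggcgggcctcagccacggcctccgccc
The Ier3 window, at chr17:35821463-35821762 on the plus strand, holds an NF-kappaB site at -92.
Ier3: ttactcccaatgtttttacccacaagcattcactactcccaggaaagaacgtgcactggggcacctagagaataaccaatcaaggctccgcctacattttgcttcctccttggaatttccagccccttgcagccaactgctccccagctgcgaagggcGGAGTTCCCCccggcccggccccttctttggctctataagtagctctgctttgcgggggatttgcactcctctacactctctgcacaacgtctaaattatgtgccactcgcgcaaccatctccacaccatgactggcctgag

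Among all 32851 promoter windows, 1.63% held a CArG box, against 5 of the 14 windows here, which came from Egr2 and Srf only, and 3 of the 4 Egr2 windows share the same box. The site TGACG was in 20.8% of all windows and in 10 of the 14, from 5 of the 7 genes. The 3 Egr2 windows that share a CArG box also share their TGACG sites, and all 4 Csrnp1 windows held TGACG. Windows of the same gene are thus not independent. The whole element TGACGTCA, which contains TGACG on both strands, was in 1.79% of all windows and in none of the 14. Egr sites were in 5.55% of all windows and in 3 of the 14 (Nr4a1, Nr4a2 and Srf). NF-kappaB sites were in 4.51% of all and in 2 of the 14 (Nr4a1 and Ier3). AP-1 sites (TGANTCA) were in 7.81% of all and in 1 of the 14, a Csrnp1 window with 2 of them at -102 and -14. ETS sites (CCGGAAG) were in 8.86% of all and in 1 of the 14, that of Srf at -122. The TATA box letters (TATAAA), searched on either strand, were in 13.6% of all and in 2 of the 14. Both matches, in Nr4a2 at -164 and in Srf at -38, were on the strand opposite to the gene. The Nr4a element AAAGGTCA was in 1.51% of all and in none of the 14. The 14 windows had a median GC content of 59.8%, against 52.7% over all windows. A match says only that the letters are there.

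In RNA, 8 of the 10 genes had enough counts to be tested, and 7 of these 8 had a positive log2 fold change of Kdm6b-KO over Control, against 49.9% of all 15185 genes tested. Their median log2 fold change was 0.84 and that of all genes was -0.00125. In 5 of the 8 (Egr1, Ier2, Ier3, Srf and Csrnp1) every Kdm6b-KO library lay above every Control library, an arrangement found in 11.0% of all genes tested, and Nr4a1, Nr4a2 and Ier5 overlapped. With edgeR's quasi-likelihood fit, 0 of the 8 passed an adjusted p of 0.05 over all genes, where 0.461% of genes passed and 0.244% passed with a higher level in Kdm6b-KO. Of all called genes 37 of 70 (52.9%) were higher, against 70 of 100 with library totals, which moved the median log2 fold change of all genes by 0.15, and 189 of 467 (40.5%) with DESeq2. Under both scalings 7 of the 8 genes stayed positive. At an unadjusted p under 0.05 there were 6 of the 8, against 14.8% of all genes. DESeq2 called 2 of them, Egr1 and Ier2, against 3.08% of all genes, and limma-voom called 0, against 0.277%. Since the genes were chosen with this contrast known, nothing is read from these counts.

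**Figure D1:**
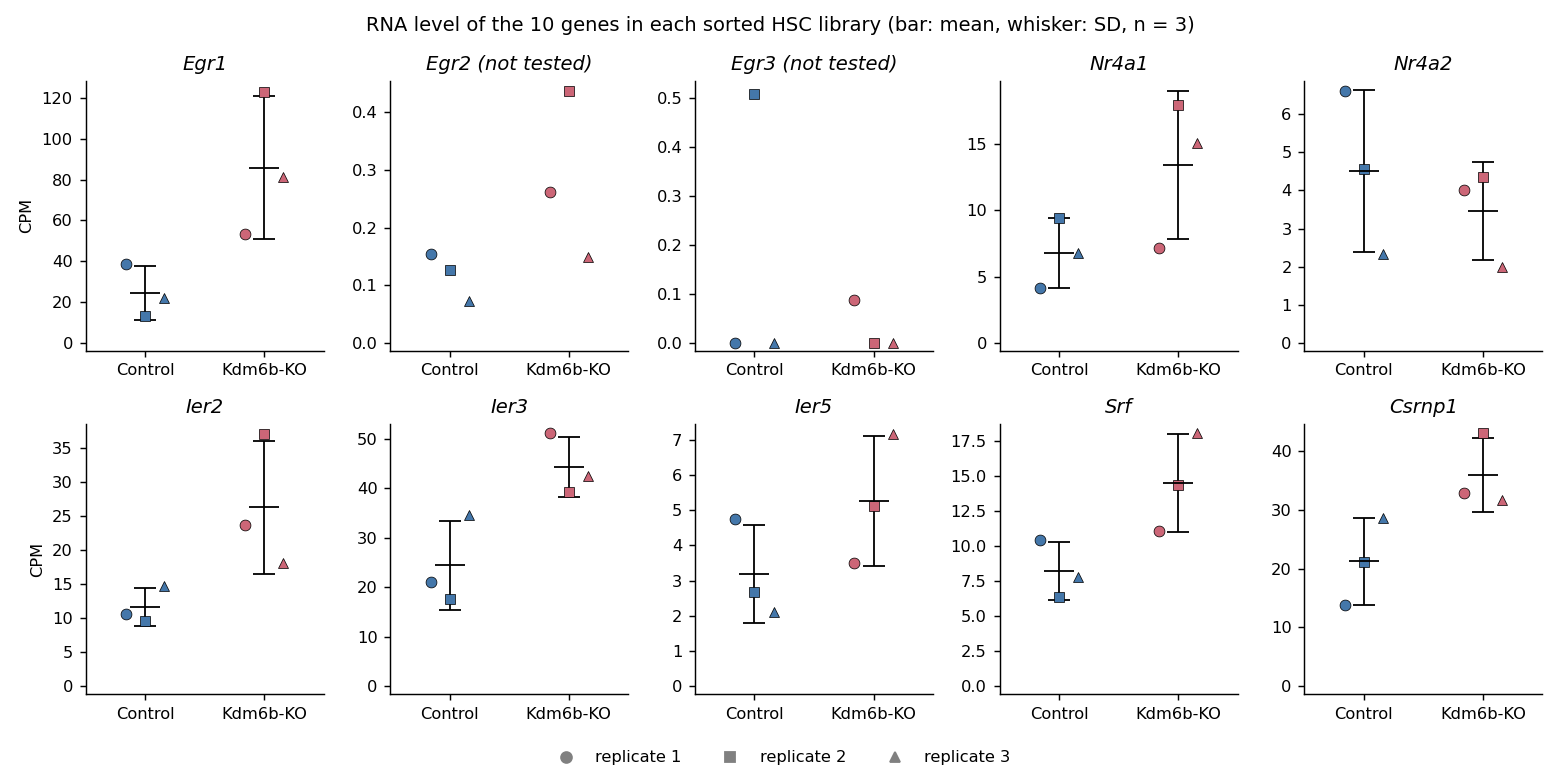
RNA level in CPM (y axes, which differ in scale) of the 10 genes in 3 Control and 3 Kdm6b-KO libraries. Points are libraries, bars and whiskers are the mean and SD of each tested gene, and the Egr1 points of Kdm6b-KO (53.1 to 123 CPM) all sit above those of Control (13 to 38.7 CPM).

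The Egr genes encode zinc-finger transcription factors that bind GC-rich sites. Egr1 (chromosome 18, 34861207 to 34864956) had 38.7, 13 and 21.8 CPM across the Control libraries and 53.1, 123 and 81.3 CPM across the Kdm6b-KO libraries. All 3 Kdm6b-KO libraries were above all 3 Control libraries, with Control replicate 2 the lowest and Kdm6b-KO replicate 2 the highest of the 6. The means were 24.5 ± 13.1 and 85.7 ± 35 CPM (SD, n = 3 each), or 1.81 as a log2 fold change (SE 0.44, edgeR adjusted p = 0.134). Among the 15185 genes tested, its log2 fold change ranked 62 from the highest. Without Control replicate 1, the Control library with the most Egr1, the log2 fold change was 2.29 with an adjusted p of 0.0240 (3.22% of all genes passed there), and over the 11 alternatives the adjusted p ran from 4.7e-11 to 0.376.

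Egr2 (chromosome 10, 67534469 to 67542188), a paralog needed for myelination, was close to silent, with 1 count in each Control library and 3, 4 and 3 counts in Kdm6b-KO. The ratio of its summed counts, scaled to library size, was 2.29 with an exact 95% interval of 0.590 to 13, so a difference was not detectable at this depth. Egr3 (chromosome 14, 70077317 to 70082613), a paralog known from lymphocytes and muscle spindles, had 0, 4 and 0 counts in Control and 1, 0 and 0 in Kdm6b-KO. Its ratio was 0.172 with an interval of 0.00349 to 1.74, so no difference was detectable either. Neither gene was tested, and the intervals cover counting error only.

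The Nr4a genes encode orphan nuclear receptors induced by signals in many cells. Nr4a1 (chromosome 15, 101253902 to 101274795), also called Nur77, had 4.15, 9.40 and 6.79 CPM across the Control libraries and 7.17, 18 and 15.1 CPM across the Kdm6b-KO libraries. The lowest Kdm6b-KO library lay inside the Control range and the other 2 lay above it. The means were 6.78 ± 2.63 and 13.4 ± 5.6 CPM (SD, n = 3 each), or 0.98 as a log2 fold change (SE 0.39, edgeR adjusted p = 0.266).

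Nr4a2 (chromosome 2, 57106830 to 57124003), a receptor best known from dopamine neurons, was the only tested gene of the 10 with a negative log2 fold change. It had 6.6, 4.57 and 2.34 CPM across the Control libraries and 4.02, 4.36 and 1.98 CPM across the Kdm6b-KO libraries. The groups overlapped, and the highest value was in Control replicate 1. The means were 4.51 ± 2.13 and 3.45 ± 1.29 CPM (SD, n = 3 each), or -0.38 as a log2 fold change (SE 0.48, edgeR adjusted p = 0.755). Without Control replicate 1 the log2 fold change was 0.0015 (adjusted p = 0.999).

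The Ier genes were named as immediate early response genes and are not one protein family. Ier2 (chromosome 8, 84661331 to 84662852), a nuclear protein induced by growth factors, had 10.6, 9.53 and 14.8 CPM across the Control libraries and 23.7, 37.2 and 18.1 CPM across the Kdm6b-KO libraries. The groups did not overlap, and the lowest Kdm6b-KO library was replicate 3. The means were 11.6 ± 2.76 and 26.3 ± 9.80 CPM (SD, n = 3 each), or 1.16 as a log2 fold change (SE 0.30, edgeR adjusted p = 0.114), the lowest adjusted p of the 8. Over the 11 alternatives its adjusted p ran from 0.00736 to 0.394, and it passed with DESeq2 and with no filter on low counts, where 1.68% of all genes passed.

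Ier3 (chromosome 17, 35821713 to 35822911), also called IEX-1, acts on survival signalling and is induced by NF-kappaB in human and mouse cells. It had 21.0, 17.7 and 34.7 CPM across the Control libraries and 51.2, 39.3 and 42.6 CPM across the Kdm6b-KO libraries. The groups did not overlap, and Control replicate 3 was the nearest to Kdm6b-KO. The means were 24.5 ± 9.02 and 44.4 ± 6.14 CPM (SD, n = 3 each), or 0.85 as a log2 fold change (SE 0.26, edgeR adjusted p = 0.163). Without Control replicate 3 the log2 fold change was 1.20 with an adjusted p of 0.0464 (1.05% of all genes passed there), within a range of 0.0346 to 0.531 over the 11 alternatives.

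Ier5 (chromosome 1, 155096367 to 155099636), which has been described as a partner of heat shock factor 1 in human cells, had 4.76, 2.67 and 2.12 CPM across the Control libraries and 3.50, 5.12 and 7.17 CPM across the Kdm6b-KO libraries. The groups overlapped, with Control replicate 1 above Kdm6b-KO replicate 1. The means were 3.18 ± 1.39 and 5.26 ± 1.84 CPM (SD, n = 3 each), or 0.76 as a log2 fold change (SE 0.45, edgeR adjusted p = 0.450).

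Srf (chromosome 17, 46546838 to 46558267), the factor that binds CArG boxes and carries them in its own promoter, had 10.4, 6.35 and 7.82 CPM across the Control libraries and 11.1, 14.4 and 18.1 CPM across the Kdm6b-KO libraries. The groups did not overlap, but Control replicate 1 and Kdm6b-KO replicate 1 were close. The means were 8.20 ± 2.07 and 14.5 ± 3.50 CPM (SD, n = 3 each), or 0.83 as a log2 fold change (SE 0.31, edgeR adjusted p = 0.239).

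Csrnp1 (chromosome 9, 119971163 to 119984742), a nuclear protein induced by axin and by cytokines, had 13.8, 21.2 and 28.6 CPM across the Control libraries and 33.0, 43.2 and 31.7 CPM across the Kdm6b-KO libraries. The groups did not overlap, with a narrow gap between Control replicate 3 and Kdm6b-KO replicate 3. The means were 21.2 ± 7.41 and 35.9 ± 6.28 CPM (SD, n = 3 each), or 0.75 as a log2 fold change (SE 0.27, edgeR adjusted p = 0.225). Egr2, Nr4a2, Srf and Csrnp1 each overlap another annotated gene, and no strand setting is stated for the counting, so part of their counts may belong to the neighbour.

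**Figure D2:**
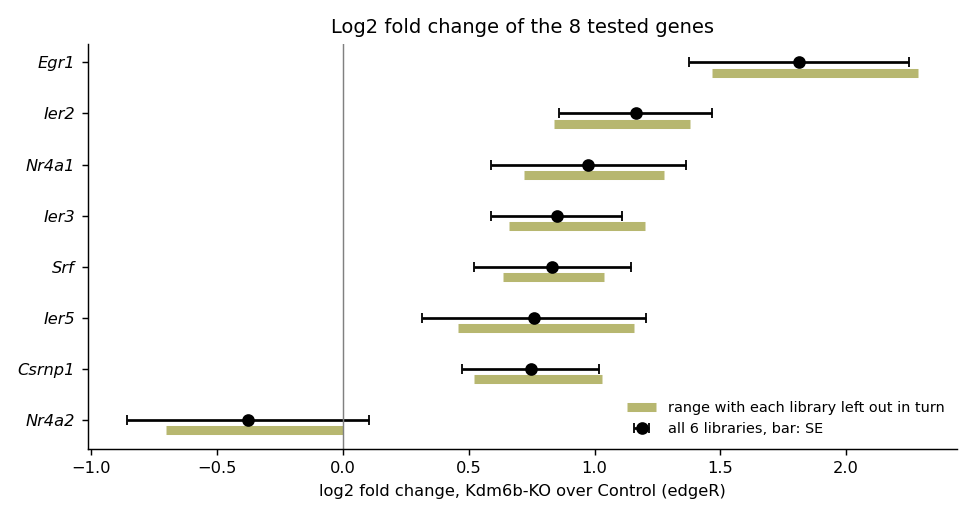
Log2 fold change of Kdm6b-KO over Control (x axis) for the 8 tested genes (y axis). Points are the value with all 6 libraries and its SE, and thick lines are the range with each library left out in turn, which is above 0 for 7 genes and spans -0.71 to 0.0015 for Nr4a2.

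Libraries were not equally high for every gene. Kdm6b-KO replicate 2 held the highest value for 4 of the 8 tested genes, Kdm6b-KO replicate 3 for 2, Kdm6b-KO replicate 1 for Ier3 and Control replicate 1 for Nr4a2. The coefficient of variation of a tested gene ran from 23.8% to 53.4% among the Control and from 13.8% to 41.7% among the Kdm6b-KO libraries, the highest Control value being that of Egr1. The summed level of the 10 genes was 110.3, 85.0 and 119 CPM across the Control libraries and 187, 285 and 216 CPM across the Kdm6b-KO libraries, of which Egr1 made up 15.2% to 43.1%. Without Egr1 the sums were 71.6, 72.0 and 97.2 CPM against 134.0, 162 and 134.9 CPM, with every Kdm6b-KO library above every Control library. Because the genes were chosen with this contrast known, the separation of these sums is a description only. The erythroid marker sums given above also separated the groups completely, in the other direction, and the neutrophil sums overlapped.

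The genes whose level followed the median profile of the 8 tested genes most closely over the 6 libraries were Gm29331, Mink1, Gramd1a, Med16 and Ptp4a3. Closeness was the root mean square distance of centred log2(CPM + 1), which was 0.0664 to 0.0871 for these 5 against a median of 0.499 for 11501 candidates. Mink1, a kinase gene, had 13.5, 12.1 and 12.9 CPM across the Control libraries and 20.5, 28.1 and 29.9 CPM across the Kdm6b-KO libraries. None of the 5 passed the test. Of the 8 genes themselves, Srf was closest, at 0.177, with 105 candidates closer still, and Nr4a2 was farthest, at 0.743.

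Related genes were described as lists. Of 11 AP-1 subunit genes, 9 were tested, 8 had a positive log2 fold change, 2 passed and rose (Fos and Fosb), and the list's median was 0.56. Over all genes tested, 49.9% were positive, 0.461% passed and 0.244% passed with a higher level in Kdm6b-KO, and this list too was chosen with earlier results known. Fos rose from 15.2, 5.08 and 4.6 CPM to 78.3, 139 and 85.5 CPM (log2 fold change 3.65, SE 0.50, edgeR adjusted p = 0.0323). Fosb rose from 2.46, 2.16 and 1.17 CPM to 8.74, 14.9 and 7.87 CPM (log2 fold change 2.48, SE 0.43, edgeR adjusted p = 0.0142). Both calls depended on single libraries: the adjusted p of Fos was 0.0935 when Control replicate 2 was left out and 0.0982 when Kdm6b-KO replicate 3 was, and that of Fosb was 0.148 without Kdm6b-KO replicate 2 and 0.0581 without Kdm6b-KO replicate 3. The adjusted p of Fosb was 0.0634 with limma-voom.

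No other list held a called gene. Nab1 and Nab2, the corepressors that bind Egr factors, had log2 fold changes of 0.40 and 0.87, and in both every Kdm6b-KO library was above every Control library, as for 11.0% of all genes tested. Of 6 SRF cofactor genes, 5 were tested, 3 were positive and the median was 0.26. The 2 with the highest mean CPM were Mrtfb (means 254 ± 86.2 CPM for Control and 186 ± 4.18 CPM for Kdm6b-KO, with SD and n = 3 each, log2 fold change -0.44) and Elk3 (103 ± 12.8 and 123 ± 14.3 CPM, log2 fold change 0.26). For Mrtfb every Kdm6b-KO library was below every Control library, as for 9.49% of all genes tested, and the Elk3 groups overlapped. Actin-related SRF targets had 9 of 14 positive with a median of 0.10, and their most abundant members Actb and Myh9 had -0.35 and -0.67. Of the ERK pathway genes, 12 of 22 were positive (median 0.056), with Kit at -0.69 and Nras at -0.51. CREB pathway genes were 7 of 14 positive (median 0.020), with Crebbp at -0.64 and Prkar1a at 0.10. In a list of other genes related by family or only by name, 0 of 3 tested genes were positive (median -0.18). Ier3ip1, whose name stands for an Ier3-interacting protein, was at -0.34 and Csrnp2 at -0.12. Egr4, Nr4a3 and Ier5l had too few counts to test. Beside these medians, that of all genes was -0.00125.

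**Figure D3:**
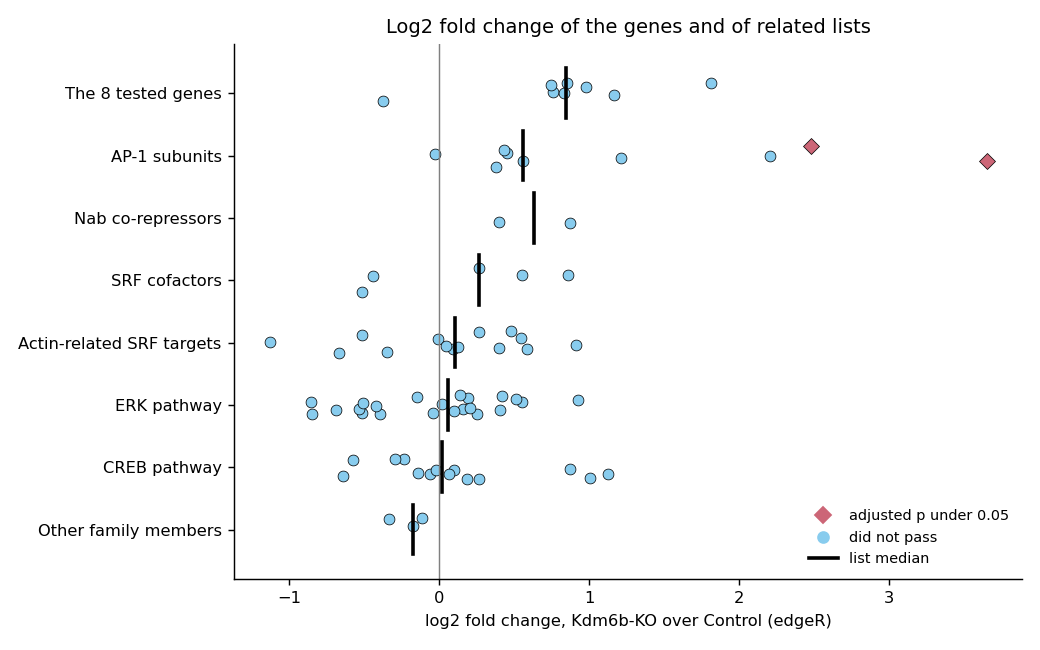
Log2 fold change of Kdm6b-KO over Control (x axis) for each tested gene of the 8 and of 7 related lists (y axis). The list labelled other family members also holds Ier3ip1, which is related by name only. Black lines are list medians (0.84 for the 8 genes, 0.56 for AP-1, 0.020 for the CREB pathway) and diamonds are genes with an adjusted p under 0.05, which were Fos and Fosb only.

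Open chromatin was found at all 10 genes in every library. Each gene had at least 1 merged region, present in all 6 peak lists, in the gene or within 1 kb of it, which held for 51.6% of all 21887 protein-coding genes, 80.5% of those tested in RNA and 15.0% of those counted but not tested. Egr2 and Egr3 thus had open chromatin with RNA too low to test. The Egr2 region overlapped the printed window and had an authors' fold enrichment of 6.41, 5.95 and 7.78 in Control and 9.57, 9.43 and 12.1 in the libraries titled 6bKO. The Egr3 region, 102 bp from the gene, had 6.90, 6.48 and 4.88 in Control and 11.7, 8.20 and 7.48 in the libraries titled 6bKO. These values are each peak's own, and the lists hold no read depth, so a higher fold in one library than another is not read as a difference.

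At the promoters the regions and windows coincided for Srf, where the summits of the 6 libraries lay -204 to -98 bp from the start, over the part with the ETS and Egr sites, and their fold enrichment of 8.47 to 13.4 ranked at the 80.3 to 90.7 percentile of each list. Nr4a2 had summits at -291 to -144 bp with a fold of 7.74 to 16, at the 79.2 to 91.7 percentile. Nr4a1 had summits at -53 to 47 bp, with a fold of 4.40 to 7.72 at the 12.5 to 72.2 percentile, and held a region in all 6 libraries at the 5' end of its span too, where the fold was 4.85 to 12.8. Ier5 had summits at -128 to 57 bp with a fold of 6.78 to 12.2, at the 64.3 to 85.4 percentile. The region at the printed Egr2 window ranked at the 54.6 to 79.0 percentile. Of the 4 Csrnp1 windows, 2 overlapped no region, 1 overlapped a region in 5 libraries with a fold of 4.63 to 7.51 (percentile 17 to 71.1) and 1 a region in a single library with a fold of 2.45. The printed Ier3 window was open in 4 of 6 libraries, 2 of each group, with a fold of 3.14 to 5.37 at the 0.472 to 31.0 percentile, while a region at the 3' end of the gene was present in all 6 with a fold of 8.45 to 12.0.

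**Figure D4:**
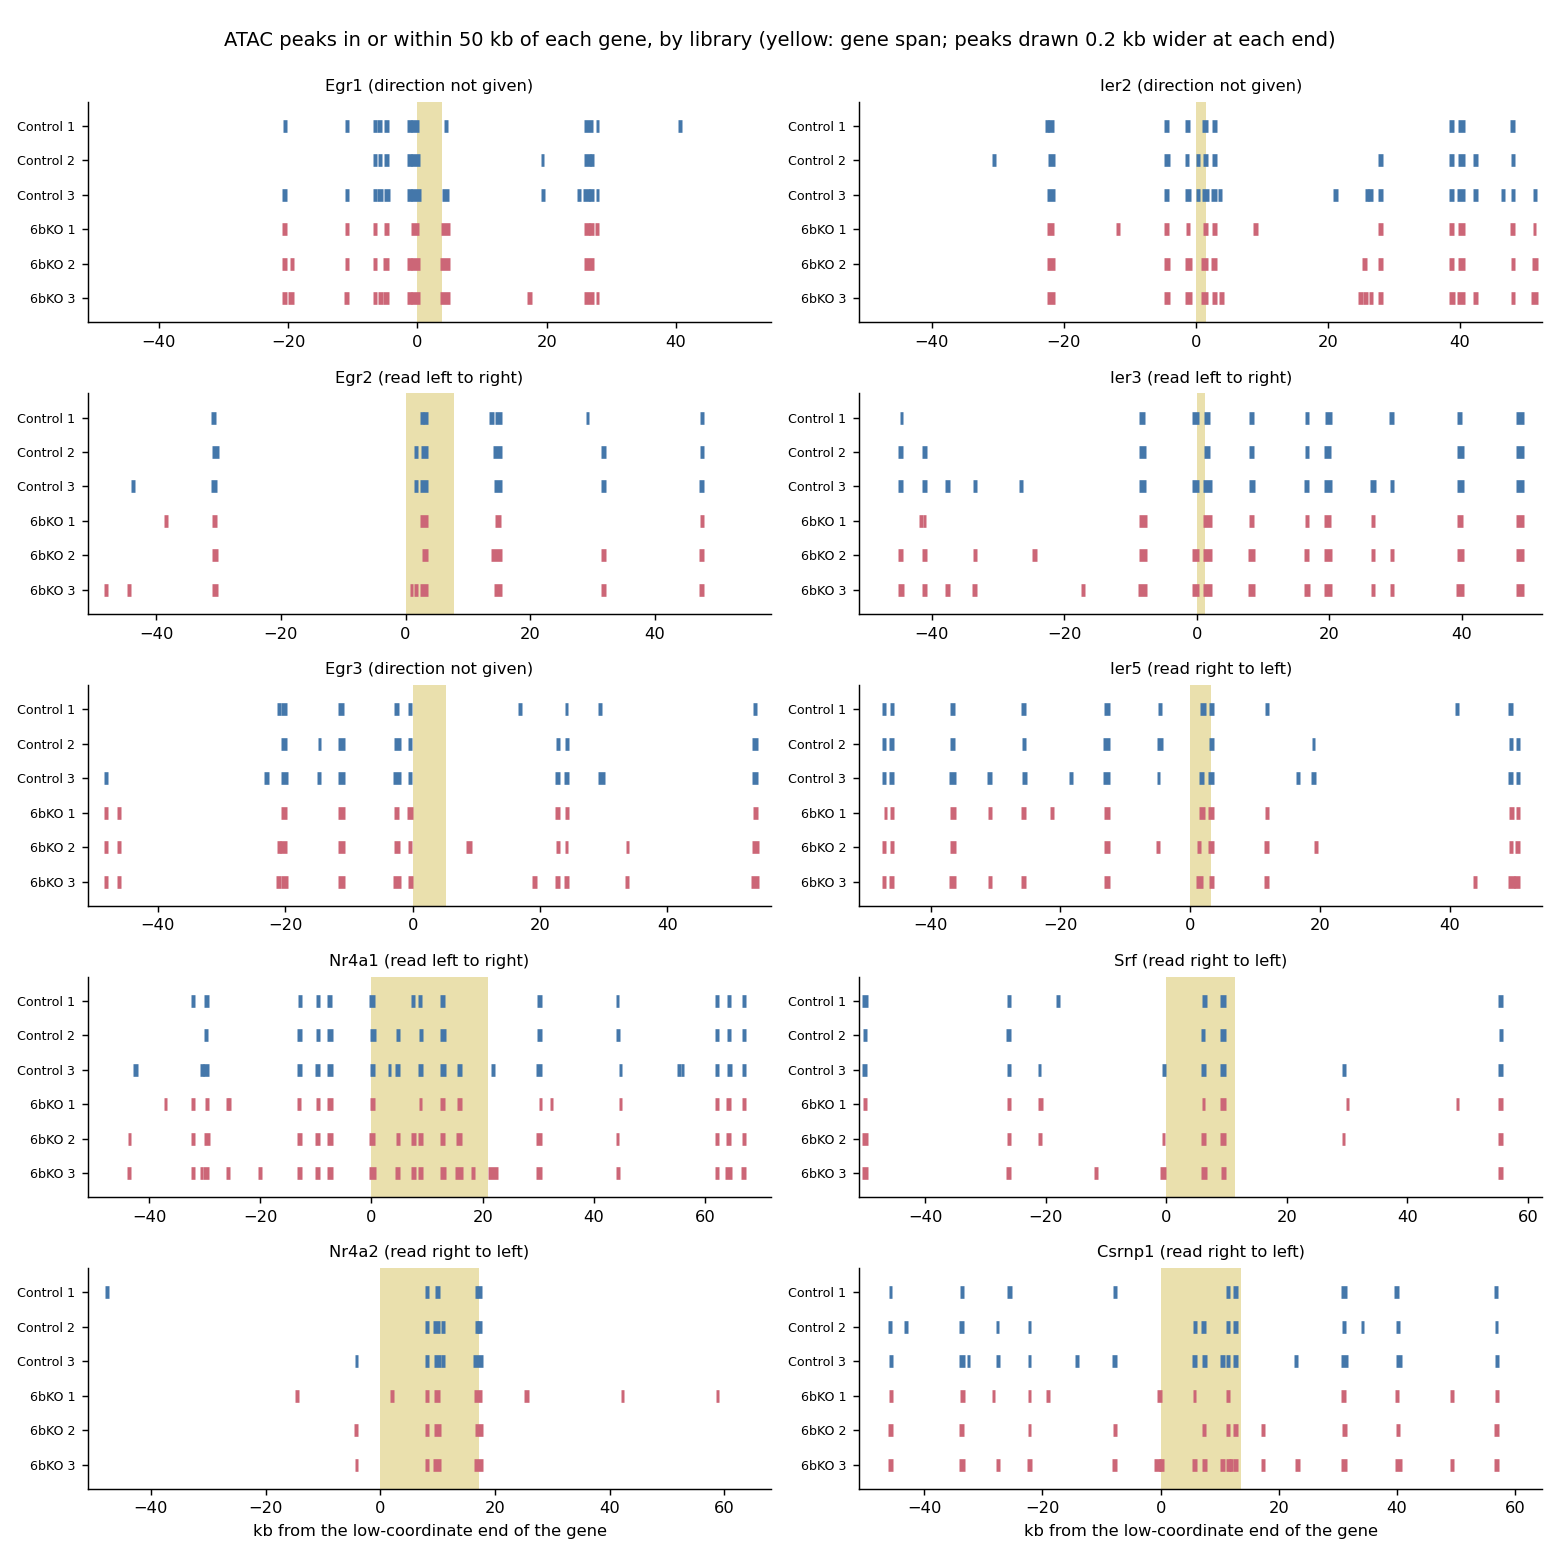
ATAC peaks in or within 50 kb of each of the 10 genes, with 1 row per library (y axis, blue for Control and red for titled 6bKO) against the distance in kb from the low-coordinate end of the gene (x axis). Yellow is the gene span, and each gene has a column of peaks from all 6 libraries in the gene or within 1 kb of it.

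Within 50 kb the 10 genes had 181 merged regions, from 11 at Nr4a2 to 29 at Nr4a1, with a median of 17.5 against 12 for all protein-coding genes and 15 for those tested in RNA. Of the 181, 59 (32.6%) were in all 6 libraries, against 14.9% of the 121062 regions within 50 kb of any protein-coding gene, and 57 (31.5%) were in a single library, against 55.8%. These shares include regions near genes with too little RNA to test, and were not computed for the tested genes alone. The median number of regions in all 6 libraries was 5.5 for the 10 genes, 2 for all protein-coding genes and 3 for those tested in RNA. Only 78 of the 181 were nearer to one of the 10 genes than to any other protein-coding gene. The numbers of peaks near the genes per library were 91, 89 and 126 in Control and 103, 102 and 127 in the libraries titled 6bKO, from lists of 44739 to 69729 peaks.

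Per 10000 peaks of its list, a Control library held 19.2, 19.9 and 20.3 peaks near the 10 genes and a library titled 6bKO held 16.2, 19.0 and 18.2. The groups did not overlap, with means of 19.8 ± 0.560 and 17.8 ± 1.46 (SD, n = 3 each). The difference was -1.99 (exact two-sided permutation p = 0.1, the smallest that 3 against 3 libraries can give). It was -1.18 without the first library titled 6bKO, and also -1.18 within 10 kb of the genes (exact two-sided permutation p = 0.2 for each). Unscaled, the difference was 8.67 peaks in the other direction, since the lists titled 6bKO were longer on average. A list that gains peaks elsewhere lowers the scaled number. The scaled numbers were not set against those of other genes, so the difference is not read as particular to these 10.

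**Figure D5:**
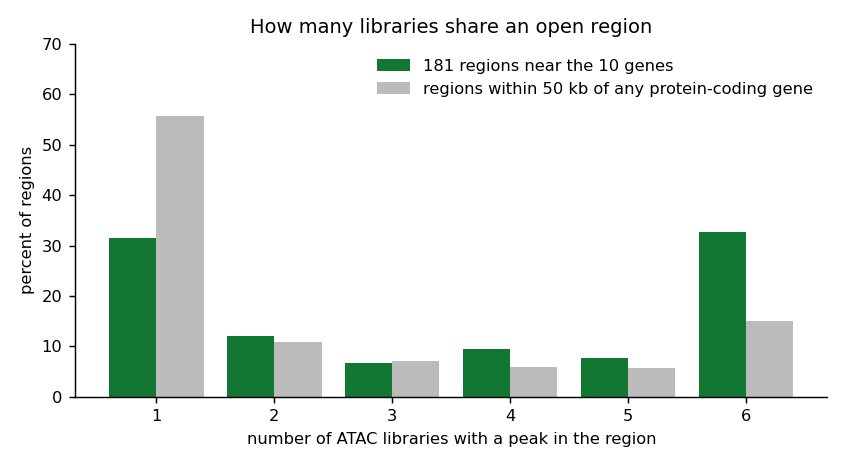
Share of merged regions (y axis, percent) found in 1 to 6 of the 6 ATAC libraries (x axis), for the 181 regions near the 10 genes (green) and for all regions within 50 kb of a protein-coding gene (grey). Grey includes genes with too little RNA to test. The green bar for all 6 libraries stands at 32.6% and the grey bar at 14.9%.

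One region near the 10 genes was in all 3 libraries titled 6bKO and in no Control library, an arrangement found in 1.30% of all regions, and none was in all 3 Control libraries only, which was 0.288% of all. It lay 45963 bp from Egr3, at chr14:70031075-70031354, within the neighbouring gene Pebp4, and its fold enrichment was 6.44, 8.03 and 11.0. It is nearer to Pebp4 than to Egr3, and 16.7% of all protein-coding genes have a region of either kind within 50 kb. Leaving out any 1 ATAC library gave 2 to 8 such regions, because fewer libraries had to hold or lack a peak, and within 10 kb of the genes there was none.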

How the data were processed

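RNA was measured in 3 Control and 3 Kdm6b-KO libraries and open chromatin in 6 ATAC libraries. Each deposited RNA table gives the raw count per Ensembl ID. The RNA tools, per the submitters' processing notes, were Partek 6.6, HTSeq 0.8.0, featureCounts 1.4.5 of Subread and STAR 2.0.4, without their roles. Each deposited ATAC list gives the peaks of 1 library, with the authors' fold enrichment as a ratio and their p and q as −log10 values. The same notes name MACS2, BWA 0.7.16a and cutadapt 1.16 for ATAC, and mm10 as the build. The annotation release is not given in the sources used here.

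All genes were fitted in edgeR 4.0.16 under R 4.3.3 (filterByExpr, TMM, robust glmQLFit and glmQLFTest on genotype, two-sided, Benjamini-Hochberg over 15185 genes, threshold 0.05). DESeq2 1.42.0 and limma-voom (limma 3.58.1), library totals, no filter on low counts, and leaving out each library were alternatives. CPM use TMM-scaled library sizes, log2 fold changes are given as Kdm6b-KO over Control, and the SE is the fold change divided by the root of the F statistic. On simulated counts for this comparison (14833 genes tested), 83.7% of genes with a true log2 fold change of 2 in either direction were recovered. The rate for a true log2 fold change of 1 is not given. Of the 8 tested genes, 2 had a log2 fold change of at least 1, and the highest was 1.81. The rate of 83.7% is therefore not theirs, and how often changes of their size would pass is not known from this simulation. Peaks overlapping by at least 1 bp were merged across the 6 lists, and the narrower window, a minimum −log10 q of 5 and an overlap of 50 bp were alternatives. The peak lists give no read depth.

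The 10 genes and all lists were chosen with earlier results of these data known. All 10 are named. From each list, called genes were named first (up to 2 per direction), otherwise the 2 of highest mean CPM. Nab, AP-1 and the other pathway lists follow that rule, and Mink1 and the 4 other genes nearest the median profile follow the rule of smallest distance. Gene positions and promoter windows are from RefSeq for GRCm38.p6. No pair of libraries was a duplicate by a chi-square of their counts. Replicates are pools of mice, and p-values measure the spread between pools.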

Additional observations from a re-analysis of the deposited data

How the results depend on the processing

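With Egr1, Nr4a1, Nr4a2, Ier2, Ier3, Ier5, Srf and Csrnp1 each recomputed under 11 alternatives, 80 of the 88 log2 fold changes kept their direction and their side of the threshold, 7 became called and 1 reversed, that of Nr4a2 without Control replicate 1 (0.0015, within -0.71 to 0.0015 over the libraries left out). The number of the 8 genes called was 2 with DESeq2, 3 with no filter on low counts, and 0 to 1 with each library left out. Genes called over the whole table were 467 with DESeq2, 42 with limma-voom, 576 with no filter, 100 with library totals, and 20 to 519 with each library left out: 519 without Control replicate 1, 46 without Control replicate 2, 161 without Control replicate 3, 24 without Kdm6b-KO replicate 2 and 20 without Kdm6b-KO replicate 3. The cause was not tested. Deviations of same-numbered libraries correlated at 0.06, 0.18 and -0.10, and those of differently numbered libraries at -0.20 to 0.11. Such weak values cannot tell whether same-numbered libraries were prepared together. With the replicate block none of the 8 genes and 88 genes in all were called. The difference in peaks near the genes reversed when numbers of peaks were left unscaled (8.67), which follows list length. Regions in 1 group only numbered 0 within 10 kb, and 2 to 8 with 1 library left out, where fewer libraries had to hold a peak. Egr2 and Egr3 had too few counts to be tested at this depth.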
